A study of Mus musculus with 5 samples.

Results

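Rab GTPases are a large branch of the Ras superfamily of small GTPases, and 50 of the 13339 genes listed in the expression table carry a symbol made of Rab, a number and at most a letter and a digit. They were taken by that pattern of the symbol alone and were grouped by the membrane compartment on which each is best known to act. The ER and Golgi group held 12 genes, the early endosome group 7, the recycling endosome group 7, the group of late endosomes, lysosomes and autophagy 8, the group of secretory granules and lysosome-related organelles 9, the group of surface delivery and cilium 6, and 1 gene, Rab40c, stood outside them. Many Rab proteins act on several compartments, so the grouping is a convenience. Transcripts were measured by RNA sequencing in bone marrow-derived macrophages of 8-week-old C57BL/6 mice, cells grown from marrow with the growth factor M-CSF for 5 days. The cells were sampled without lipopolysaccharide (LPS, 0 h) and after 4, 8, 12 and 24 h with LPS at 100 ng/ml, a glycolipid of bacterial outer membranes that is recognised by the receptor TLR4. All 5 library titles begin with WT2. There was 1 library per time point, so every difference below compares 2 libraries, has no replicate check and was not tested. Every later library had received LPS, so the length of culture and the length of exposure cannot be told apart.

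A Rab protein cycles between a GTP-bound form, which sits on a membrane and recruits effectors, and a GDP-bound form, which GDI proteins hold in the cytosol. Guanine nucleotide exchange factors (GEFs) load GTP at the right membrane, GTPase-activating proteins (GAPs) end the signal, and lipid anchors added by a geranylgeranyl transferase with an escort protein make membrane binding possible. In macrophages the passage from Rab5 on early phagosomes to Rab7 on late ones is the classical path by which engulfed particles reach the lysosome, and several Rab proteins sort TLR4 and secreted cytokines.

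Promoters are shown for members whose transcripts differed in the same direction or furthest. Rab10, Rab20, Rab22a and Rab32 were at least 2-fold higher at both 4 h and 24 h than at 0 h, and Rab40c had the most negative log2 difference between 4 h and 0 h among members with a promoter entry. The 250 bases before an annotated start of each gene follow, 5′ to 3′ on the gene's strand, from RefSeq on GRCm38.p6, at chr12:3309970-3310219 (minus strand), chr8:11478641-11478890 (minus), chr2:173659595-173659844 (plus), chr10:10558208-10558457 (minus) and chr17:25919715-25919964 (minus). Capitals mark CACGTG (the E-box, bound by MiT and Myc family factors) or GAGGAA and its reverse complement (the core of sites for PU.1, a transcription factor of macrophages).
Rab10: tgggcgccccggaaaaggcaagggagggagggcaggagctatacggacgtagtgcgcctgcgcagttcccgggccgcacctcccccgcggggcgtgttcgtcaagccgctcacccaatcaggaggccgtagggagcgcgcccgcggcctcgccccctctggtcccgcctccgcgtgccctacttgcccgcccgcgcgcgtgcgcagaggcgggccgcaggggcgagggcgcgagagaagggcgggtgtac
Rab20: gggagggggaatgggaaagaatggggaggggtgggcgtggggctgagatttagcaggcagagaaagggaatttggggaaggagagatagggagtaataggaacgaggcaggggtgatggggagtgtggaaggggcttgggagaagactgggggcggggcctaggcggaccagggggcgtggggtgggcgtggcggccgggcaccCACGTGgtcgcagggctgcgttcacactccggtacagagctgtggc
Rab22a: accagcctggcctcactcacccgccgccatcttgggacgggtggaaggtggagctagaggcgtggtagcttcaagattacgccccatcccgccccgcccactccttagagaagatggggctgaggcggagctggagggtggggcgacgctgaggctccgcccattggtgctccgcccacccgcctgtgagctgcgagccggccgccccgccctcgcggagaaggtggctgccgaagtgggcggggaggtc
Rab32: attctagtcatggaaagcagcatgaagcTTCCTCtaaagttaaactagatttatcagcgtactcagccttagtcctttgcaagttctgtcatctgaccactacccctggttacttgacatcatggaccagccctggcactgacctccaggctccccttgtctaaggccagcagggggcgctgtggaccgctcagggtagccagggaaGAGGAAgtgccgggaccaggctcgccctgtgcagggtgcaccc
Rab40c: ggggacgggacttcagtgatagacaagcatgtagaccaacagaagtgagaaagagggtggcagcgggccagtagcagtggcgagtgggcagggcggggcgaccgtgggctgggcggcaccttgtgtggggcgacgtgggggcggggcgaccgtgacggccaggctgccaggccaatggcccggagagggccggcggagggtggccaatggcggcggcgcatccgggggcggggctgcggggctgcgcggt

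The letters CACGTG occurred 46 bases before the start of Rab20, and GAGGAA or its complement 222 and 43 bases before the start of Rab32. The other 3 windows held none of 5 motifs searched on both strands, which were a form of the kappaB site (GGG and TTCC with any 3 bases between), TGANTCA (AP-1), the interferon-stimulated response element (GAAA, repeated after any 2 bases), CACGTG and GAGGAA. The search covered 36 of the 40 Rab genes analysed below, in 44 windows. Rab18, on chromosome 18, was left out by a limit on that chromosome that was not set for the windows of all genes. CACGTG was in 9.09% of these windows, against 8.76% of 10191 windows of all genes analysed, and GAGGAA in 18.2% against 23.0%. The kappaB form was in 3 Rab windows (6.82%, against 5.26% of all windows), those of Rab9, Rab11a and Rab28, and TGANTCA and the interferon-stimulated response element were in 1 each (2.27%, against 4.56% and 3.04%), Rab34 and Rab19. The median GC content was 62.4% for Rab windows and 59.6% for all. A match is a string of letters in a window and says nothing of a factor's binding.

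Levels are given in FPKM (fragments counted per transcript length and library size), so that genes can be set side by side. Differences are of log2(FPKM + 1), which understates the fold of genes with low values. Counts were made over genes whose 5 values averaged 1 FPKM or more, which left 40 of the 50 Rab genes and 9795 genes in all, and a gene was counted as higher or lower from a difference of 1 in size, that is 2-fold. The median gene differed by -0.70 between 4 h and 0 h, by -0.11 between 24 h and 0 h, and by 0.49 between 24 h and 4 h. Differences are therefore also given with the median of all genes subtracted, called centred. Steps between low values placed the depth at about 18800000 to 19200000 reads per library. This is an estimate, and the low values used were themselves picked with a depth of 19000000 reads assumed. Of them, 53.2% to 68.4% came out as whole reads, against 28.5% to 29.9% by chance at the depth chosen. The best share that chance would give over all depths searched was not computed. The LPS-inducible genes Tnf, Il1b, Nos2 and Cxcl10 summed to 20.8, 10413 and 2703 FPKM at 0, 4 and 24 h. Summed markers of macrophages stood between 2052 and 3054 FPKM (7 of 8 markers in the table). Cd68 ranged from 824 to 1896 FPKM, Csf1r from 199.5 to 636 FPKM and Adgre1 from 340.5 to 967 FPKM. Fcgr1 ranged from 73.1 to 542 FPKM and Itgam from 64.0 to 320 FPKM. Mertk (16.9 to 50.1 FPKM) and Lyz2 (19.1 to 37.5 FPKM) were lower. Summed markers of neutrophils stood at 339, 321, 254, 180 and 58.8 FPKM at 0, 4, 8, 12 and 24 h (7 of 8 markers in the table). They were made up mostly of S100a8 and S100a9. Ngp stood at 35.1, 39.0, 12.0, 4.10 and 0.28 FPKM over the same times. Between 0 h and 24 h Ltf went from 11.5 to 0.16 FPKM and Mpo from 4.79 to 0 FPKM. Camp stood between 0.93 and 6.78 FPKM, lowest at 24 h. Ly6g went the other way, from 0.12 FPKM at 0 h to 3.71 FPKM at 24 h. Those of dendritic cells, named in 1 protocol field, stood between 14.8 and 46.2 FPKM (6 of 7), made up mostly of Itgax and Ccr7, with Flt3, Xcr1, Zbtb46 and Clec9a all below 1 FPKM. Those of lymphoid, mast, erythroid and stromal cells stood between 0.22 and 9.70 FPKM. The part of such cells in the Rab values was not tested, and in bulk RNA fewer cells of a type and less RNA per cell cannot be told apart.

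**Figure D1:**
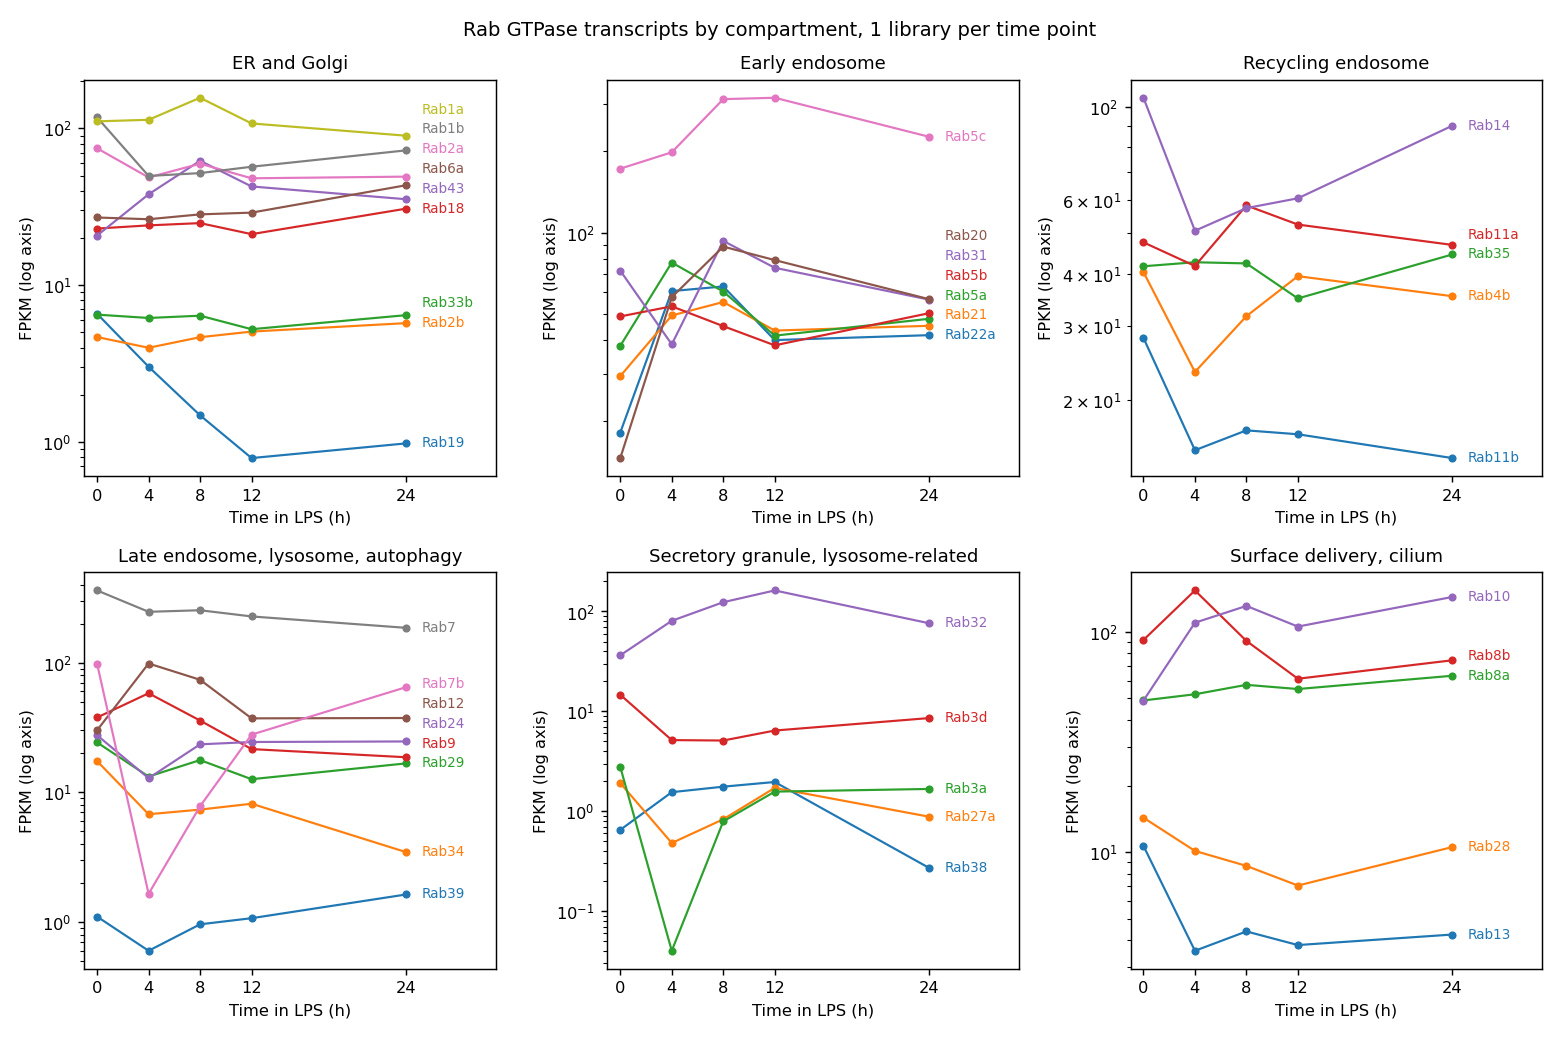
FPKM (log axis) of the 39 Rab genes over the filter that belong to a compartment, against time in LPS (h), with 1 panel per compartment and 1 point per library. Rab7b has its minimum of 1.65 FPKM at 4 h. Rab20, Rab22a, Rab32 and Rab10 are among 10 genes that lie above their 0 h point at every later time.

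At 4 h against 0 h, which addresses the early response to LPS, the early endosome genes Rab5a, Rab20 and Rab22a, with Rab10, Rab12 and Rab32, were at least 2-fold higher, and Rab7b and Rab40c had the most negative differences. Of the 40 genes, these 6 were the higher ones (15% of the Rab genes, against 12.2% of all genes) and 9 were at least 2-fold lower (22.5%, against 38.1%). The lower ones were Rab1b, Rab3a, Rab3d, Rab7b, Rab13, Rab14, Rab24, Rab34 and Rab40c. The median difference of the Rab genes was -0.18, against -0.70 for all genes. The split depended on scaling: with differences centred, 11 Rab genes were higher (27.5%, against 21.5% of all genes) and 3 lower (7.5%, against 13.4%), the 3 being Rab3a, Rab7b and Rab40c. Centring added Rab8b, Rab9, Rab21, Rab38 and Rab43 to the higher ones. With the trend on transcript length removed, 12 were higher (against 19.8% of all genes) and 2 lower (against 11.9%), Rab7b and Rab40c. Transcripts of the 6 higher genes had a median length of 2258 nt and those of the 9 lower genes of 1913 nt, against 2663 nt for all 40 Rab genes and 3034 nt for all genes.

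At 8 h against 0 h 6 Rab genes were at least 2-fold higher (against 12% of all genes) and 8 lower (against 28.9%). Rab5a was no longer among the higher ones and Rab43 was. With differences centred 10 were higher (against 18%) and 3 lower (against 14.9%), and with the length trend removed 11 (against 18.1%) and 1 (against 12.6%). At 12 h against 0 h 5 were higher (against 12.3%) and 7 lower (against 21.5%), centred 7 (against 16.5%) and 2 (against 12.9%), and with the length trend removed 7 (against 16.4%) and 2 (against 9.94%). Rab10, Rab20, Rab22a, Rab32 and Rab43 were the 5 higher ones at 12 h.

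At 24 h against 0 h most of these differences were smaller. Of the 40 genes, 4 were at least 2-fold higher (10%, against 11.3% of all genes), namely Rab10, Rab20, Rab22a and Rab32, and 3 at least 2-fold lower (7.5%, against 14.5%), namely Rab13, Rab19 and Rab34. The same 7 genes passed 2-fold with differences centred (against 12.6% and 12.3% of all genes). With the length trend removed 3 were higher and 3 lower (against 12.2% and 9.63% of all genes): Rab22a (0.87) and Rab13 (-0.64) came within 2-fold and Rab11b (-1.12) was lower. The median difference was -0.20, against -0.11 for all genes.

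At 24 h against 4 h, Rab7b, Rab40c and Rab3a were at least 2-fold higher (7.5% of the Rab genes, against 25% of all genes), and Rab8b, Rab9, Rab12, Rab19 and Rab38 at least 2-fold lower (12.5%, against 8.19%). With differences centred 2 were higher (5%, against 9.65%) and 8 lower (20%, against 15.3%), and with the length trend removed 2 (against 9.83%) and 7 (against 14.9%). These comparisons share libraries and are not independent. In all, 19 of the 40 genes were 2-fold apart in at least 1 of the 3 comparisons and 21 in none, or 47.5% of the Rab genes, against 61.3% of all genes. Over all 5 libraries, 47.5% of the Rab genes stayed within 2-fold of their own lowest value on the log2(FPKM + 1) scale, against 33.4% of all genes. The highest library was that of 0 h for 45% of the Rab genes, against 48.7% of all genes, and that of 8 h for 17.5%, against 6.77%. The lowest library was that of 4 h for 35%, against 46.1% of all genes, and that of 0 h for 25%, against 19.5%.

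**Figure D2:**
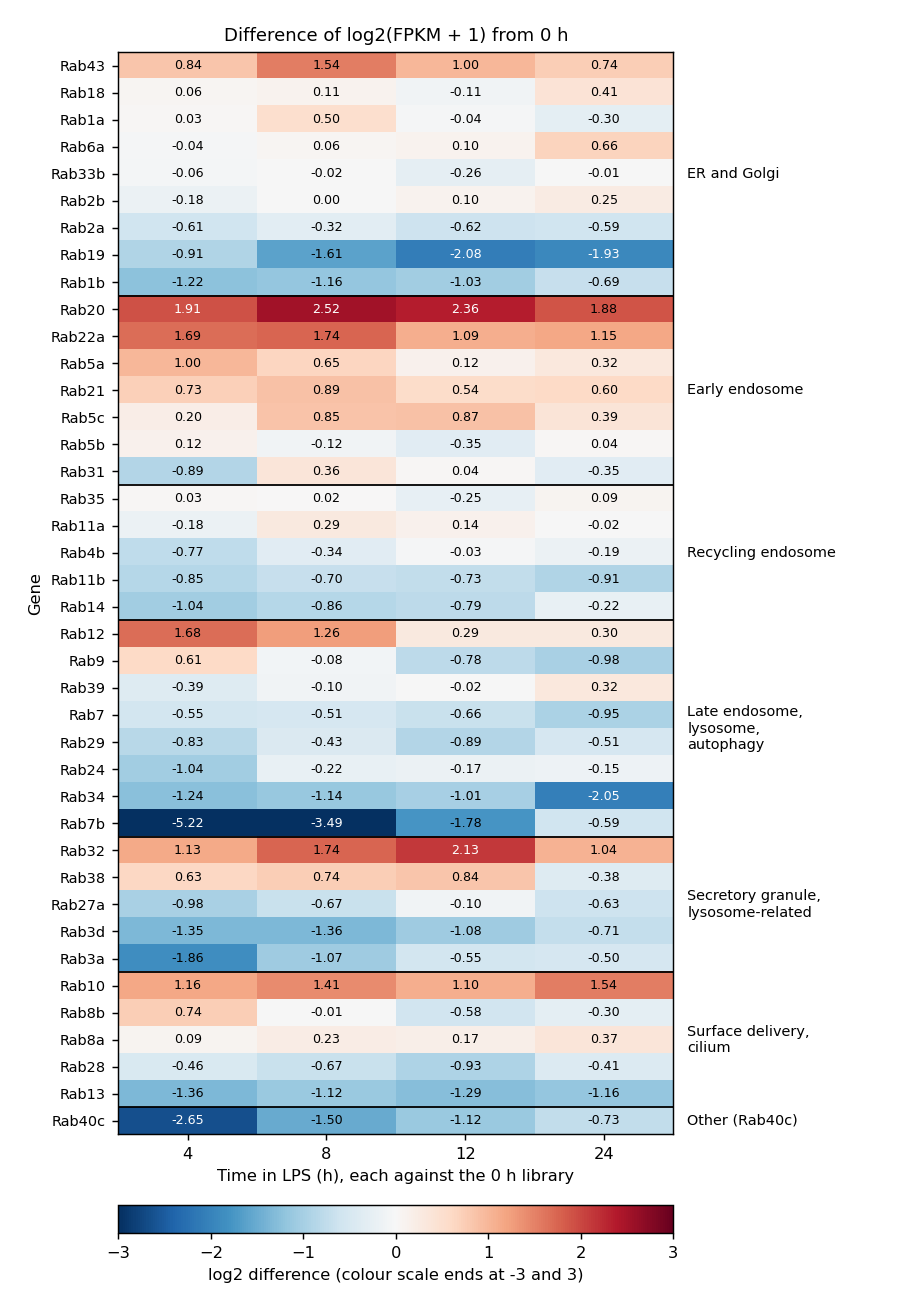
Difference of log2(FPKM + 1) of each Rab gene over the filter from the 0 h library at 4, 8, 12 and 24 h, with genes in rows grouped by compartment, red for higher and blue for lower than 0 h. Rab20, Rab22a, Rab32 and Rab10 are among 10 genes above 0 h in every column, and Rab7b is darkest blue at 4 h (-5.22) and pale at 24 h (-0.59).

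**Figure D3:**
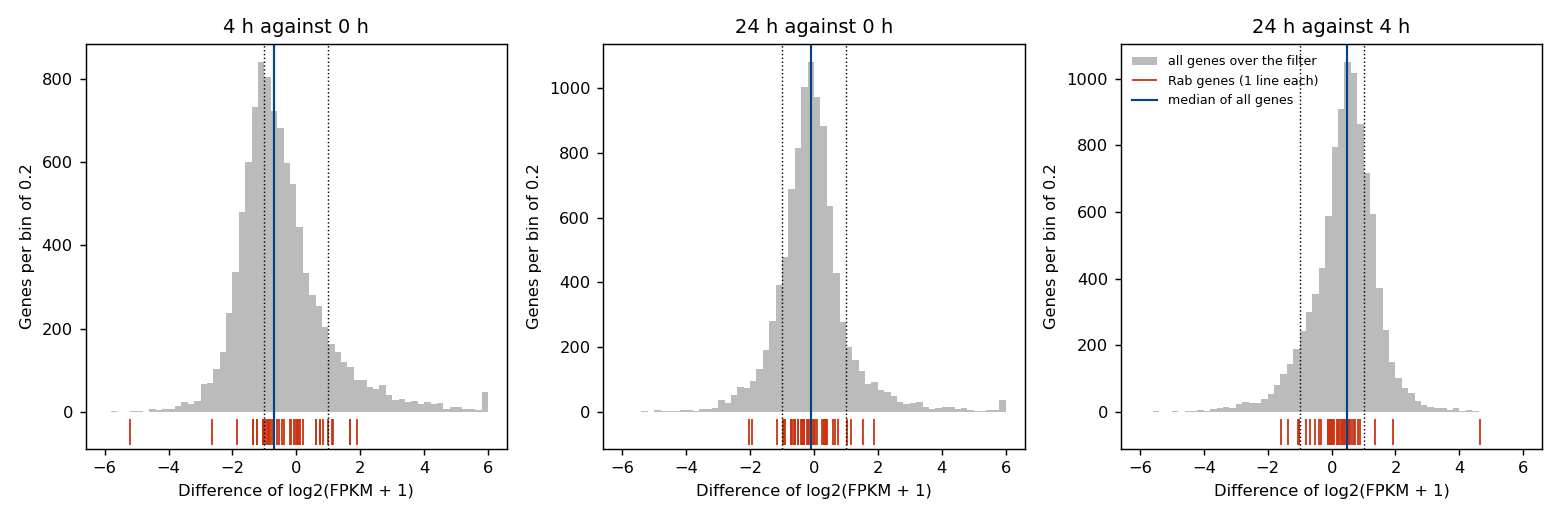
Number of genes over the filter per bin of the log2(FPKM + 1) difference (grey, with values beyond 6 in size placed in the outermost bins) and the 40 Rab genes as red lines under the axis, for 4 h against 0 h, 24 h against 0 h and 24 h against 4 h. Dotted lines mark 2-fold and the blue line the median of all genes, -0.70, -0.11 and 0.49, and the Rab7b line lies at -5.22, -0.59 and 4.63.

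The counts by compartment that follow are descriptions of few genes. Beside them, 12.2% of all genes were higher and 38.1% lower at 4 h than at 0 h (centred 21.5% and 13.4%), and 11.3% higher and 14.5% lower at 24 h. Among Rab genes of early endosomes, 3 of 7 were at least 2-fold higher and 0 lower at 4 h than at 0 h (median difference 0.73), and centred 4 of 7 were higher. At 24 h 2 of 7 were higher (median 0.39). Rab20 (gene 19332, chromosome 8, 11453390 to 11478640, GRCm38), a GTPase of maturing phagosomes, had 14.6, 57.6, 88.7, 79.1 and 56.7 FPKM in the libraries of 0, 4, 8, 12 and 24 h. The 0 h library was the lowest and the 8 h library the highest, 6.06-fold apart. The log2 difference from 0 h was 1.91 at 4 h and 1.88 at 24 h (centred 2.60 and 1.99). Rab22a (gene 19334, chromosome 2, 173659836 to 173702186), which acts in endosomal sorting and recycling, stood at 18.2, 60.7, 63.2, 39.99 and 41.7 FPKM at 0, 4, 8, 12 and 24 h. Every LPS library exceeded the 0 h library, by 3.34-fold at 4 h and 2.29-fold at 24 h. Its close relative Rab31, which acts between the trans-Golgi network and endosomes, stood at 72.3, 38.6, 93.1, 74.1 and 56.4 FPKM, lowest at 4 h, where Rab22a was high.

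The 3 Rab5 genes encode the GTPase that drives fusion of early endosomes and early phagosomes. Rab5a stood at 38.1, 77.4, 60.5, 41.5 and 48.0 FPKM over the 5 times. Its difference at 4 h against 0 h was 1.005, just at the threshold (centred 1.70), and its 24 h library was within 2-fold of 0 h. Rab5c, the most abundant early endosome member with a mean of 245 FPKM, stood at 172, 198, 312, 315 and 226 FPKM, highest at 8 h and 12 h. Rab5b, at 48.9, 53.3, 45.03, 38.2 and 50.3 FPKM, had the narrowest range of the 3. Rab21, which follows integrins into endosomes, stood at 29.4, 49.3, 55.3, 43.4 and 45.2 FPKM, within 2-fold throughout.

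Among Rab genes of late endosomes, lysosomes and autophagy, 1 of 8 was at least 2-fold higher and 3 lower at 4 h than at 0 h (median -0.69). With differences centred, 2 were higher and 1 lower (median 0.01). At 24 h 0 were higher and 1 lower (median -0.55). Rab7b (gene 226421, chromosome 1, 131688681 to 131715443), which in macrophages is known to send TLR4 to lysosomes and so to limit its signal, had 97.9, 1.65, 7.81, 27.9 and 64.7 FPKM in order of time. The 4 h library held 1.69% of the 0 h level, and the level was higher in each later library, reaching 66.1% of the 0 h level at 24 h. At the estimated depth the 4 h value stood for about 139 reads on the longest transcript, with a 95% Poisson interval of 1.38 to 1.94 FPKM that covers counting error only. The log2 difference was -5.22 at 4 h and -0.59 at 24 h against 0 h, and 4.63 at 24 h against 4 h (centred -4.53, -0.48 and 4.14). Rab7 itself (gene 19349), the general GTPase of late endosomes and lysosomes and the most abundant Rab transcript with a mean of 255 FPKM, stood at 361, 247, 254, 227 and 186 FPKM. It was highest at 0 h and lowest at 24 h, at 51.5% of the 0 h level, with a difference of -0.95 that did not reach 2-fold.

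Rab12 (gene 19328), which directs transferrin receptor to lysosomes and is a substrate of the kinase LRRK2, had 30.2, 98.6, 73.8, 37.2 and 37.4 FPKM in order of time. It was high at 4 h and 8 h and back near the 0 h level from 12 h. Rab9 (gene 56382), which returns mannose 6-phosphate receptors from late endosomes to the Golgi, stood at 37.8, 58.1, 35.8, 21.6 and 18.7 FPKM, highest at 4 h and lowest at 24 h, where it had 49.4% of the 0 h level (difference -0.98). Between 24 h and 4 h its difference was -1.59, and that of Rab12 -1.37 (centred -2.08 and -1.86). Rab34 (gene 19376), which positions lysosomes and takes part in phagosome maturation, stood at 17.4, 6.78, 7.36, 8.17 and 3.46 FPKM, with the 24 h library lowest (difference from 0 h -2.05, and -1.94 when centred). At 4 h its difference was -1.24 and its centred difference -0.55. Rab24, linked to autophagosomes, stood at 27.5, 12.9, 23.5, 24.5 and 24.7 FPKM, low only in the 4 h library. Its 4 h difference was -1.04, its centred difference -0.35 and its difference without the length trend 0.13, so its direction rested on the scaling. Rab29, a Golgi and lysosome partner of LRRK2, ranged from 12.6 to 24.3 FPKM and Rab39 from 0.60 to 1.63 FPKM, both within 2-fold of 0 h on the log2 scale.

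Among Rab genes of secretory granules and lysosome-related organelles, 5 of 9 passed the filter, of which 1 was at least 2-fold higher and 2 lower at 4 h (median -0.98), and with differences centred 2 higher and 1 lower (median -0.28). Rab32 (gene 67844, chromosome 10, 10545039 to 10558207), a GTPase of lysosome-related organelles that acts against intracellular bacteria in macrophages, was by far the most abundant of them, at 36.4, 80.6, 124, 162 and 76.2 FPKM. All LPS libraries exceeded the 0 h library, with the 12 h library 4.46-fold above it. The difference from 0 h was 1.13 at 4 h and 1.04 at 24 h, close to the threshold at both times (centred 1.82 and 1.15). Its paralog Rab38 had its highest values in the same library at much lower levels, with 0.65, 1.55, 1.76, 1.96 and 0.27 FPKM, and was lowest at 24 h. Its value at 24 h corresponds to about 8 reads (0.12 to 0.54 FPKM, 95% Poisson).

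Rab3d (gene 19340), a GTPase of secretory granules, stood at 14.7, 5.15, 5.10, 6.42 and 8.56 FPKM, with all LPS libraries below the 0 h library. Its 4 h difference was -1.35 (centred -0.65). Rab3a, known from synaptic vesicles, stood at 2.77, 0.04, 0.79, 1.57 and 1.67 FPKM. The 4 h value corresponds to about 1 read, with a 95% Poisson interval of 0.00088 to 0.19 FPKM, so no fold is given. The counts that include Rab3a therefore rest on that value. Rab27a, which docks lytic granules and exosomes, stood at 1.91, 0.48, 0.83, 1.71 and 0.88 FPKM, with a 4 h difference of -0.98 that fell short of 2-fold on this scale.

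Among Rab genes of surface delivery and cilium, Rab10, Rab8b and Rab8a were abundant and Rab13 and Rab28 were not. Of the 5 over the filter, 1 was at least 2-fold higher and 1 lower at both 4 h and 24 h against 0 h. Centred, 2 were higher and 0 lower at 4 h. Rab10 (gene 19325, chromosome 12, 3247428 to 3309969), which in macrophages is known to carry TLR4 from the Golgi to the plasma membrane, had 48.8, 110.2, 131, 106 and 144 FPKM in order of time. All LPS libraries were more than 2-fold above the 0 h library, and the 24 h library was highest, by 2.95-fold. The centred differences were 1.85 at 4 h and 1.65 at 24 h. Rab8b (gene 235442), which acts in exocytosis and autophagy, stood at 92.0, 154, 91.1, 61.3 and 74.4 FPKM, with a single high library at 4 h. Rab8a, its close relative, stood at 48.9, 52.2, 57.6, 55.1 and 63.3 FPKM within 1.29-fold of each other. Rab13, known from tight junctions, stood at 10.7, 3.57, 4.37, 3.79 and 4.23 FPKM, below 0 h in all LPS libraries. Its differences were -1.36 at 4 h (centred -0.66) and -1.16 at 24 h (centred -1.05). Rab28 ranged from 7.06 to 14.4 FPKM.

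Rab genes of the ER and Golgi were mostly within 2-fold of 0 h. Of 9 over the filter, 0 were at least 2-fold higher and 1 lower at both 4 h and 24 h against 0 h, with medians of -0.06 and -0.01. The lower gene was Rab1b at 4 h and Rab19 at 24 h, and centred the call at 4 h was 1 higher, Rab43, and 0 lower. Rab1a, which with Rab1b drives traffic from the ER to the Golgi, was the most abundant by mean and stood at 111, 113, 157, 108 and 89.8 FPKM. Rab1b (gene 76308) stood at 117, 49.7, 51.9, 56.9 and 72.4 FPKM, so all LPS libraries were below the 0 h library, while those of Rab1a lay on both sides of it. The 4 h difference of Rab1b was -1.22 (centred -0.53). Rab19 (gene 19331) stood at 6.57, 3.02, 1.48, 0.79 and 0.98 FPKM, and was lower in every LPS library, with a 24 h difference of -1.93 (centred -1.83). Rab43, a Golgi GTPase, stood at 20.7, 38.0, 62.2, 42.6 and 35.3 FPKM, 2.997-fold above 0 h in the 8 h library, and within 2-fold at 4 h and 24 h. Rab6a, which serves retrograde and secretory traffic at the Golgi, had 43.4 FPKM at 24 h, against 27.0 at 0 h. Rab2a (48.1 to 74.6 FPKM), Rab18, known from the ER and lipid droplets (21.2 to 30.8 FPKM), Rab33b (5.24 to 6.49 FPKM) and Rab2b (3.99 to 5.73 FPKM) stayed within 2-fold.

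Of 5 recycling endosome genes over the filter, 0 were at least 2-fold higher and 1 lower at 4 h than at 0 h, and 0 were 2-fold apart at 24 h except Rab11b with the length trend removed. Their median differences were -0.77 and -0.19. Rab14 (gene 68365), which acts between early endosomes, phagosomes and the Golgi and was the most abundant of them by mean, stood at 105, 50.7, 57.3, 60.5 and 90.1 FPKM, lowest at 4 h and back near the 0 h level at 24 h. Its 4 h difference of -1.04 was -0.34 when centred. Rab11a, the main GTPase of slow recycling, stood at 47.5, 41.8, 58.2, 52.4 and 46.9 FPKM, whereas Rab11b stood at 28.1, 15.2, 17.0, 16.6 and 14.6 FPKM, below 0 h in all LPS libraries. Rab35, which acts in fast recycling at the plasma membrane, had the narrowest range among these, 34.9 to 44.5 FPKM, and Rab4b, also of fast recycling, ranged from 23.4 to 40.4 FPKM.

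Rab40c (gene 224624, chromosome 17, 25882114 to 25919714), whose SOCS box links it to ubiquitin ligase complexes, had 14.2, 1.42, 4.35, 5.96 and 8.13 FPKM in order of time. Like Rab7b it was lowest at 4 h and higher in each later library. The difference was -2.65 at 4 h against 0 h and 1.92 at 24 h against 4 h (centred -1.95 and 1.43). The other 10 members had means below 1 FPKM and stay out of the counts: Rab3c, Rab4a, Rab6b, Rab15, Rab23, Rab27b, Rab30, Rab36, Rab37 and Rab44. Of these Rab4a stood at 2.66, 0.19, 0.07, 0.08 and 0.38 FPKM and Rab6b at 2.19, 0.46, 0.13, 0.14 and 0.45 FPKM, both with the 0 h library well above the rest. Rab3c was listed at 0 in the 24 h library, and no other member was listed at 0.

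**Figure D4:**
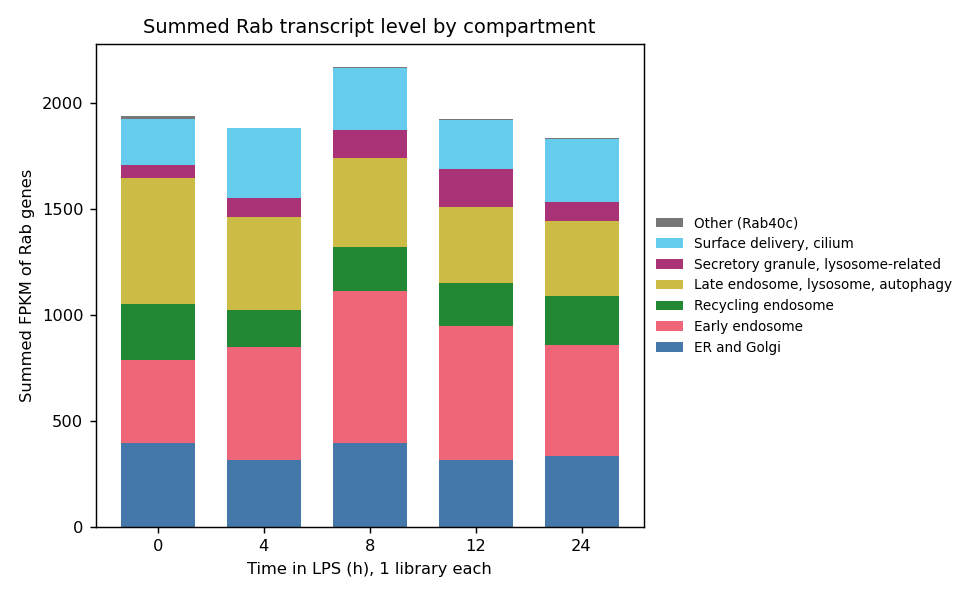
Summed FPKM of the 50 Rab genes in each library, stacked by compartment, against time in LPS (h). The early endosome share is larger and the late endosome share smaller at 24 h (28.5% and 19.2%) than at 0 h (20.3% and 30.8%).

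Summed over all 50 genes, Rab transcripts made up 1939, 1884, 2172, 1928 and 1839 FPKM at 0, 4, 8, 12 and 24 h, or 0.37%, 0.43%, 0.46%, 0.40% and 0.38% of the summed FPKM of the table. The sum differed little between libraries and its make-up more. Early endosome genes held 20.3%, 28.4%, 33.0%, 32.8% and 28.5% of it in that order, and late endosome, lysosome and autophagy genes 30.8%, 23.3%, 19.4%, 18.7% and 19.2%. The late group outweighed the early group in the 0 h library alone. The most abundant member by mean was Rab5c in the early group and Rab7 in the late group, and these 2 genes carried much of the change. Rab7 had 361 FPKM at 0 h and 186 at 24 h, where the late group summed to 597 and 353 FPKM. Rab5c had 172 FPKM at 0 h and 315 at 12 h, where the early group summed to 394 and 632 FPKM. Secretory granule and lysosome-related genes, most of it Rab32, held 9.11% of the sum at 12 h, against 3.02% at 0 h. Surface delivery genes held 11.1%, 17.6% and 16.2% at 0, 4 and 24 h.

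**Figure D5:**
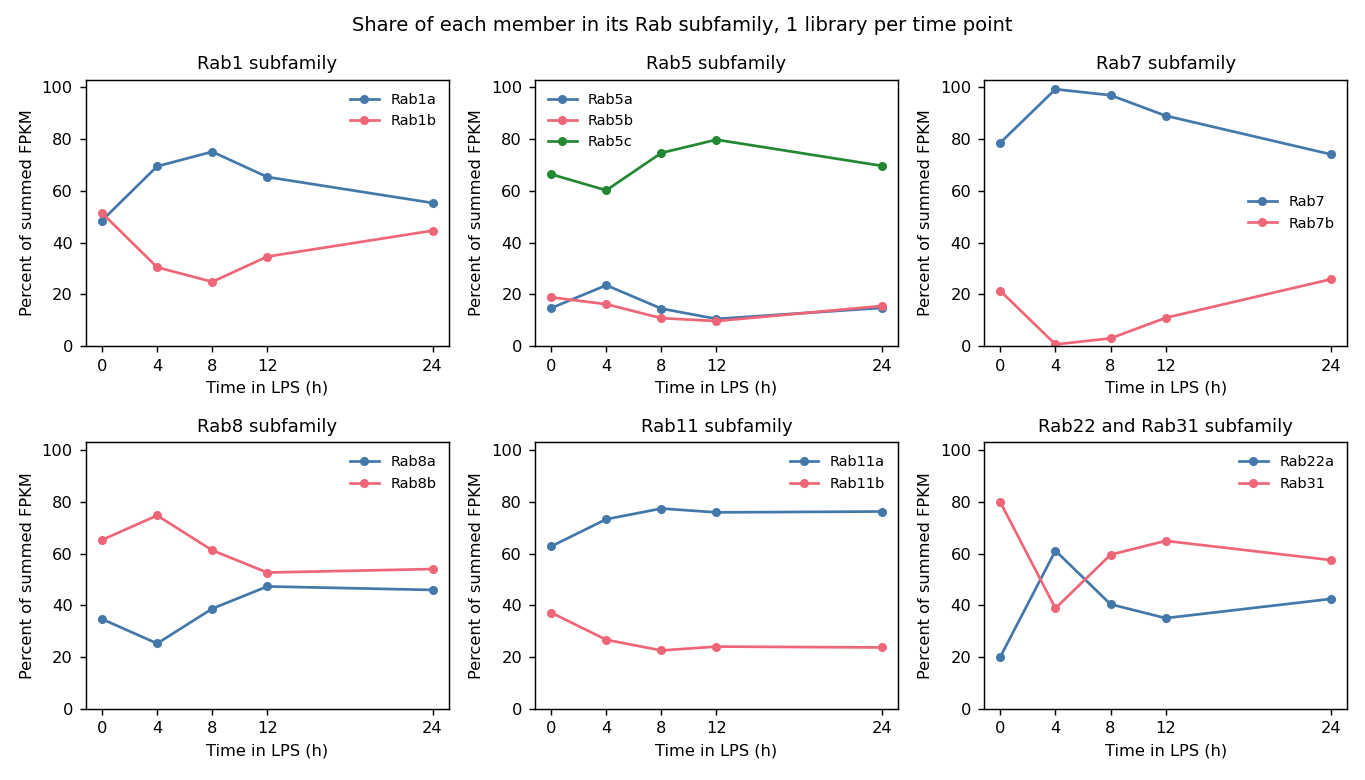
Percent of the summed FPKM of a Rab subfamily held by each member, against time in LPS (h), for 6 subfamilies with more than 1 abundant or mobile member. Rab7b holds 21.4% of the Rab7 pair at 0 h, 0.66% at 4 h and 25.9% at 24 h, and Rab22a exceeds Rab31 at 4 h alone.

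Some close relatives kept their proportions and others did not. Rab32 held 98.1% to 99.7% of the sum with Rab38, and Rab2a 89.6% to 94.1% of the Rab2 pair. Within the Rab1 pair, Rab1a held 48.6%, 69.5%, 75.2%, 65.4% and 55.4% of the summed FPKM over the 5 times. Within the Rab7 pair, Rab7b held 21.4%, 0.66%, 2.99%, 10.9% and 25.9%. Rab22a held 20.1%, 61.2% and 42.5% of the sum with Rab31 at 0, 4 and 24 h. In these 3 pairs the share at 24 h was closer to that at 0 h than the share at 4 h was. Rab8a held 34.7%, 25.3% and 46.0% of the Rab8 pair at 0, 4 and 24 h. Rab11a held 62.8%, 73.3% and 76.3% of the Rab11 pair at the same times. Where a pair is similar in sequence, the division of reads between its members matters. Among 780 pairs of the 40 genes, the coding sequences of Rab8a and Rab8b were most alike, with 77.4% identical bases in a global alignment, followed by Rab1a and Rab1b (76.1%) and Rab11a and Rab11b (75.1%). The longest run of bases shared by any transcripts of these pairs was 17, 38 and 14 nt. Among the 12 most similar pairs no shared run exceeded 38 nt, and pseudogenes were not examined. The pair of Rab7 and Rab7b and that of Rab32 and Rab38 were not among these 12.

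The proteins that run the Rab cycle were described as 4 lists. Of 8 genes for prenylation and membrane delivery, 0 were at least 2-fold higher and 3 lower at 4 h (0% and 37.5%, against 12.2% and 38.1% of all genes). At 24 h 0 were higher and 1 was lower (against 11.3% and 14.5%). The medians were -0.89 and -0.10 (centred -0.20 and 0.00). Centred, 1 was higher and 1 lower at 4 h (12.5% each, against 21.5% and 13.4%). Rabac1, which receives prenylated Rab proteins at membranes, had 227, 79.4 and 86.0 FPKM at 0, 4 and 24 h. Gdi2, a GDP dissociation inhibitor, had 237, 115 and 166 FPKM at 0, 4 and 24 h. Chm, the escort protein, had 5.03, 6.94 and 6.25 FPKM at 0, 4 and 24 h.

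Of 35 exchange factors 29 passed the filter. At 4 h 5 were higher and 6 lower (17.2% and 20.7%, against 12.2% and 38.1% of all genes, median 0.03). With differences centred the counts were 11 and 4 (37.9% and 13.8%, against 21.5% and 13.4%, median 0.72). At 24 h the counts were 3 and 3 (against 11.3% and 14.5%, median 0.23). Rin2, a Rab5 exchange factor, had 22.6, 134 and 48.3 FPKM at 0, 4 and 24 h. Its relative Rin3, also for Rab5, had 26.7, 44.5 and 5.81 FPKM at 0, 4 and 24 h. At 4 h both lay above 0 h, Rin2 by a difference of 2.52 and Rin3 by 0.72, which is within 2-fold. At 24 h they lay on opposite sides of 0 h. Ric1, part of the Rab6 exchange factor, had 4.73, 13.6 and 25.5 FPKM at 0, 4 and 24 h. Rab3il1, an exchange factor for Rab8, had 81.7, 3.87 and 10.2 FPKM at 0, 4 and 24 h, the most negative 24 h difference of the list (-2.88).

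Of 36 GAP genes 31 passed the filter. At 4 h 2 were higher and 11 lower (6.45% and 35.5%, against 12.2% and 38.1% of all genes, median -0.63). With differences centred the counts were 4 and 6 (12.9% and 19.35%, against 21.5% and 13.4%, median 0.07). At 24 h 4 were higher and 2 lower (against 11.3% and 14.5%, median -0.02). Tbc1d9 had 13.8, 10.9 and 54.6 FPKM at 0, 4 and 24 h. Tbc1d20, a GAP for Rab1, had 18.6, 19.4 and 42.7 FPKM at 0, 4 and 24 h. Tbc1d2, a GAP for Rab7, had 8.34, 0.22 and 2.36 FPKM at 0, 4 and 24 h, and Tbc1d17 had 24.4, 3.74 and 10.1 FPKM.

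Of 49 listed effector symbols 44 were in the table and 35 passed the filter. At 4 h 4 were higher and 12 lower (11.4% and 34.3%, against 12.2% and 38.1% of all genes, median -0.62). With differences centred the counts were 7 and 4 (20% and 11.4%, against 21.5% and 13.4%, median 0.07). At 24 h 4 were higher and 4 lower (against 11.3% and 14.5%, median 0.05), and 6 and 3 when centred (against 12.6% and 12.3%). Inpp5b, an inositol phosphatase that binds several Rab proteins, had 7.56, 50.7 and 35.0 FPKM at 0, 4 and 24 h. Micall2, which binds Rab8 and Rab13, had 5.65, 13.3 and 25.8 FPKM at 0, 4 and 24 h. Mical1, an actin-oxidising enzyme that Rab proteins bind, had 27.1, 0.99 and 4.48 FPKM at 0, 4 and 24 h. Rilp, which links Rab7 to dynein, had 5.02, 1.11 and 1.03 FPKM at 0, 4 and 24 h. The counts of the 4 lists are descriptions, to be read beside the shares of all genes given above.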

How the data were processed

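RNA sequencing values of 5 libraries of mouse macrophages were used. The authors deposited a single table of FPKM, to 2 decimals, with a column for each library. The submitters' processing notes list Bowtie2, RSEM and GRCm38. Versions, annotation and filters were not given in the sources used here. A value falls when other genes take more of the reads, and RSEM divides reads that fit several genes by estimate. Too few values came out as whole reads to run a count test.

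Rab genes were found by symbol in the table, with symbols turned into dates restored by gene identifier. The Rab genes, the compartments and the lists were chosen with earlier results of these data known. Differences of log2(FPKM + 1) were computed for 3 pairs of time points, and for 8 h and 12 h against 0 h as a description, for genes with a mean of at least 1 FPKM. Alternatives were pseudocounts of 0.1 and 5, no filter, a mean of at least 5 FPKM, centring on the median gene, and removal of a lowess trend (span 0.3) on the longest protein-coding transcript in GENCODE M21, which 99.5% of genes over the filter had. Named are all Rab genes 2-fold apart in a comparison, the most abundant of each compartment and, per list, the 2 largest 24 h differences in each direction; other Rab genes are given by value. 1 gene that the rule names is not reported here. The similarity of members was computed on coding bases instead of proteins, which had been planned. Depth was searched over a grid, with transcripts shortened by 40 nt, and Poisson intervals (95%) rest on it. The calling of differences was tested on simulated data, drawn by Poisson from the 0 h values without a shift of the median gene. The search for depth, the promoter search and the alignments were not simulated. Python 3.11.15, pandas 2.3.3, statsmodels 0.14.6 and Biopython 1.88 were used.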

Additional observations from a re-analysis of the deposited data

How the results depend on the processing

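No paired analysis was possible because each time point had 1 library. Of 198 counts and medians recomputed for the Rab genes and the 4 lists, 157 stayed within 1.5 times the value given (1.5-fold for medians). A median could change sign within that limit, as some medians of the lists did. At 24 h against 0 h the Rab median went from -0.20 to 0.09 with the length trend removed. At 24 h against 4 h it went from 0.11 to -0.38 when centred and to -0.40 with the length trend removed. Of 175 recomputed differences of Rab genes that were 2-fold apart, 145 stayed 2-fold apart in the same direction. Many of these could not have changed. A filter leaves a difference as it is (30 recomputed with no filter, 25 with a minimum of 5 FPKM), and pseudocount 0.1 can only enlarge it (30). In the settings that could change a call, 17 stayed with pseudocount 5, 23 with centring and 20 with the length trend removed. Among these differences of single Rab genes the direction turned for Rab24 alone at 4 h against 0 h, at 0.13 with the length trend removed. Pseudocount 5 left 13 of the Rab differences below 2-fold, centring 7 and removal of the length trend 9 besides Rab24.

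For the Rab genes at 4 h against 0 h, centring gave 11 higher, 3 lower and a median of 0.51, removal of the length trend 12, 2 and 0.54, and pseudocount 5 gave 3 lower. At 24 h against 0 h, 6 were lower with pseudocount 0.1, 1 with pseudocount 5 and 5 without a filter. At 24 h against 4 h, 3 were lower with pseudocount 5, 3 with a minimum of 5 FPKM and 8 when centred. For prenylation and membrane delivery genes at 4 h, centring gave 1 higher, 1 lower and a median of -0.20, and removal of the length trend 1 lower and a median of -0.15; at 24 h removal of the length trend gave 0 lower. For exchange factors at 4 h, 3 were higher with pseudocount 5, 11 when centred (median 0.72) and 8 without the length trend, and at 24 h 1 was higher with pseudocount 5. For GAP genes at 4 h, centring gave 4 higher, 6 lower and a median of 0.0696, pseudocount 5 gave 6 lower and a minimum of 5 FPKM 5 lower; at 24 h pseudocount 5 gave 2 higher and 0 lower and a minimum of 5 FPKM 2 and 1. For effectors at 4 h, centring gave 7 higher, 4 lower and a median of 0.0721, and 6 were lower without the length trend; at 24 h pseudocount 5 gave 2 and 2, 2 were higher without the length trend and 2 lower with a minimum of 5 FPKM. The cause was not tested. Below about 1 FPKM a value rests on few reads, as for Rab3a, Rab19, Rab27a, Rab38 and Rab39 in some libraries.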

Other observations

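Some regulators and effectors of Rab proteins, picked after their values were seen, are given here as values in FPKM. Mon1a, a subunit of the Rab7 exchange factor, had 9.03, 1.84 and 9.22 at 0, 4 and 24 h, whereas its partner Ccz1 had 31.9, 32.6 and 39.95. Mon1b, also among the exchange factors listed, had 8.20, 9.11 and 10.8 at the same times. Plekhm1, an effector of Rab7 at lysosomes, had 41.8, 6.15 and 37.9 at 0, 4 and 24 h. Its lowest library was that of 4 h, as for Rab7b and for 46.1% of all genes. The Rab5 effector Appl1 had 5.28, 18.5 and 5.14 at 0, 4 and 24 h, and its relative Appl2 had 29.8, 3.33 and 31.2, low at 4 h where Appl1 was high. Rab11fip1, an effector of Rab11, had 1.97, 56.9 and 5.28 at 0, 4 and 24 h, and Rab11fip5 had 49.1, 4.54 and 24.2. Rab11a itself stayed between 41.8 and 58.2, and Rab11b had 28.1, 15.2 and 14.6 at 0, 4 and 24 h. Hps1 and Hps4, which form the exchange factor of Rab32 and Rab38, were at 5.00 and 2.73 at 4 h, against 12.7 and 10.9 at 0 h. Their centred differences were -0.49 and -0.98, both within 2-fold. Rab32 was at 80.6 at 4 h, against 36.4 at 0 h (centred 1.82). Lrrk2, a kinase of several Rab proteins, had low values of 0.56, 1.83, 1.43, 3.64 and 1.97 at 0, 4, 8, 12 and 24 h. No cause was tested for any of these values.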
